A study of Mus musculus with 6 samples.

Results

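Lysosomal enzymes, membrane proteins and the lysosome's proton pump were followed through 45 genes in RNA of mouse spleen. The genes were taken by name and not by a rule on measured values, though earlier results of these data were known. They are 9 peptidases, 11 glycan and lipid hydrolases with their activators and progranulin, and 8 proteins of the lysosome membrane and of cholesterol export. The others are 3 transcription factors of the MiT/TFE family and 14 subunits of the vacuolar proton pump (V-ATPase). All 45 were found among the 40808 gene IDs of the deposited table. The study, titled as work on how the UVRAG-ITCH-ESCRT pathway controls NOTCH, compared spleens with and without Dox. Every animal had received a bone marrow (BM) transplant, and the RNA is labelled as coming from leukaemia cells of the spleen. The group without Dox had 3 libraries, numbered 4, 5 and 6, and the group with Dox had 3, numbered 10, 11 and 12. Genotype, strain, sex, age, the agent's full name, its dose and duration, and the gene under its control are not given in the sources used here. The labels do not say that the libraries of a group came from separate animals, so p-values measure the spread between these samples, which may be technical.

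Lysosomes are acidic compartments in which hydrolases break down protein, glycan and lipid delivered by endocytosis and autophagy. The V-ATPase, built of a proton-conducting V0 sector in the membrane and an ATP-splitting V1 sector in the cytosol, supplies the acid. TFEB and TFE3 bind E-box motifs near the start of many lysosome genes and raise their transcription when mTORC1 on the lysosome surface is inactive. In the spleen, macrophages that clear red cells and antigen-presenting cells are known for high lysosome content. ESCRT-dependent sorting delivers membrane receptors such as NOTCH to the lysosome.

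The libraries read the 3′ ends of mRNAs. Totals ranged from 5541486 to 8725767 counts, and the 45 genes held 0.251% ± 0.0075 (SD, n = 3) of them without Dox and 0.407% ± 0.0486 (SD, n = 3) with it. The groups also differed in much else. Haemoglobin transcripts made up 8.61% to 9.05% of counts without Dox and 14.1% to 15.9% with Dox. Counts of Y-linked genes were 545 to 801 in the libraries without Dox against none in those given it. Xist, which silences 1 X chromosome in female cells, had 193 to 324 counts and 3347 to 5669. The labels give no sex, and the sex of the cells and Dox cannot be told apart. The biological coefficient of variation between libraries was 0.190 without Dox and 0.516 with Dox. The marker genes of T cells summed to between 2302 and 2428 normalized CPM (counts relative to the TMM-scaled size of each library) without Dox and between 261 and 363 with Dox. B cell markers summed to 33.1 to 39.7 CPM and to 1767 to 1896 CPM, and neutrophil markers to 55.4 to 71.8 CPM and to 2323 to 2458 CPM, in the same order. The labels name no lineage for the leukaemia cells. In these bulk samples fewer cells of a type and less RNA per cell cannot be told apart.

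Of the 45 genes, 44 passed the filter on low counts, and 16 of them passed the threshold of an adjusted p-value under 0.05 in edgeR's quasi-likelihood test: 14 were higher with Dox (31.8%) and 2 were lower (4.55%). Over all 14110 genes tested, 45.6% passed, 23.6% higher and 22.1% lower. Of all called genes 51.6% were higher, and 64.3% with scaling by library size only, where the lysosome genes had 17 higher and 1 lower. The share of lysosome genes that rose was thus above that of all genes, and the share that fell was below it. The median log2 fold change, Dox over no Dox, was 0.14 for the lysosome genes, with quartiles of -0.31 and 0.88. It was 0.07 for all genes, with quartiles of -0.95 and 1.16. A change of more than 1 on the log2 scale was fitted for 13 of the 44 and for 52.2% of all genes. The 6 libraries did not overlap between groups for 22 of the 44 (50%), against 59.6% of all genes. The 14 genes that rose were spread over all 6 roles, and so were the 28 that did not pass. The acid glycogen hydrolase Gaa had 0 to 5 counts per library and was not tested.

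**Figure D1:**
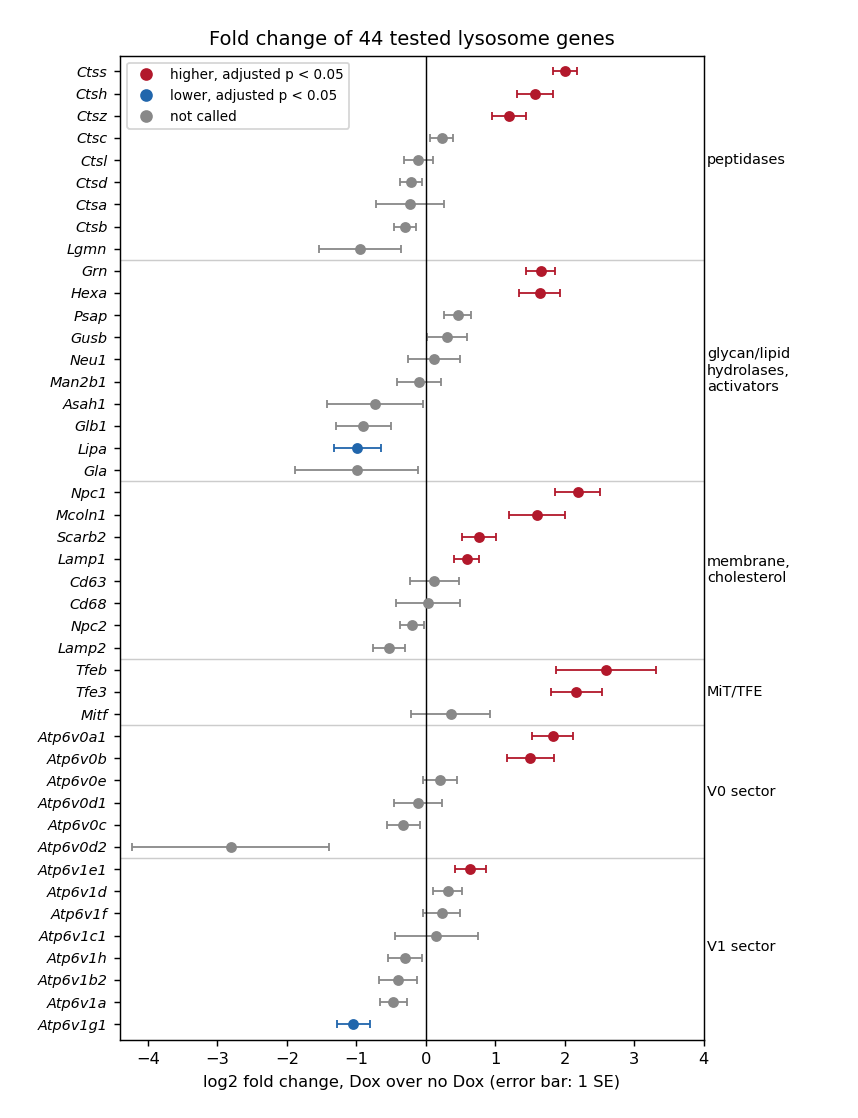
Fitted log2 fold change (Dox over no Dox, horizontal axis) of each of the 44 tested lysosome genes, ordered by role, with error bars of 1 SE. Red points are the 14 genes that rose, blue the 2 that fell, grey the 28 that did not pass; every role holds red and grey points, and Atp6v0d2 has the widest error bar.

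Among the factors that switch on lysosome genes, Tfeb and Tfe3 rose with Dox and Mitf did not pass. Tfe3 (chrX:7762530-7775202) stood at 5.97, 5.07 and 4.58 CPM in libraries 4, 5 and 6 and at 17.6, 20.3 and 32.7 CPM in libraries 10, 11 and 12. All 3 libraries with Dox lay above all 3 without it. The fitted fold was 4.50 (log2 2.17 ± 0.36 SE, edgeR adjusted p = 0.000924). Tfe3 is X-linked, as are Gla and Lamp2, of which neither passed. The part of the difference in sex-linked transcripts in the level of Tfe3 was not tested.

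Tfeb (chr17:47737037-47792416) was measured at very few counts: libraries 4, 5 and 6 had 8, 8 and 9, and libraries 10, 11 and 12 had 19, 118 and 89. In normalized terms these were 1.19, 1.62 and 1.53 CPM against 2.59, 12.1 and 11.7 CPM. The groups did not overlap, but library 10 stood close to the libraries without Dox. The log2 fold change was 2.60 ± 0.72 (SE, edgeR adjusted p = 0.0144). Leaving out any 1 of libraries 4, 5 and 6 gave log2 fold changes of 2.42 to 2.61 with adjusted p-values of 0.0524 to 0.0661, and with limma-voom the adjusted p was 0.122. Over all alternatives it ranged from 0.00234 to 0.122. Mitf, the melanocyte and osteoclast member of the family, stood at 6.12, 4.26 and 4.58 CPM and at 9.53, 3.19 and 6.59 CPM. These values overlapped, and the log2 fold change was 0.36 ± 0.57 (SE, edgeR adjusted p = 0.636). Transcript levels do not report where these proteins were in the cell.

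Mcoln1 (chr8:3500519-3515232), the calcium channel of the lysosome membrane and a known target of TFEB, rose as well. It stood at 4.63, 5.67 and 4.24 CPM without Dox and at 14.97, 10.5 and 18.7 CPM with Dox, with no overlap. The fold was 3.04 (log2 1.60 ± 0.40 SE, edgeR adjusted p = 0.00876).

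The promoters show which of the lysosome genes carry the motif that these factors bind. RefSeq promoters of build GRCm38.p6, from 250 bases before to 50 bases after the annotated start, were held for 36 of the 45 genes. The search was for the E-box core CACGTG and for the longer TCACGTGA, which contains it; both read the same on either strand. The core was in the promoters of 13 of the 36 genes (36.1%), against 8.09% of all 27025 genes of the promoter table and 11.3% of the genes tested here. The longer form was in 7 of the 36 (19.4%), against 1.12% and 2.08%. Shown, 5′ to 3′ along the gene's strand with each match in capitals, are 3 promoters of genes that rose and the 2 promoters with the longer form in 2 copies, whose genes did not pass. Mcoln1 is at chr8:3500269-3500568 on the plus strand, Lamp1 at chr8:13158911-13159210 on the plus strand, Atp6v0b at chr4:117887280-117887579 on the minus strand, Ctsa at chr2:164833523-164833822 on the plus strand and Gla at chrX:134600956-134601255 on the minus strand.
Mcoln1: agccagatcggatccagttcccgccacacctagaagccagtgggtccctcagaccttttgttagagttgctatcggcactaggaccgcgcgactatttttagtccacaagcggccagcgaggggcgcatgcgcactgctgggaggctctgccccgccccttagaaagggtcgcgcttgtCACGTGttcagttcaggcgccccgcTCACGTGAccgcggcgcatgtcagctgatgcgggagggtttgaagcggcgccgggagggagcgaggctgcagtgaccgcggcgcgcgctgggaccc
Lamp1: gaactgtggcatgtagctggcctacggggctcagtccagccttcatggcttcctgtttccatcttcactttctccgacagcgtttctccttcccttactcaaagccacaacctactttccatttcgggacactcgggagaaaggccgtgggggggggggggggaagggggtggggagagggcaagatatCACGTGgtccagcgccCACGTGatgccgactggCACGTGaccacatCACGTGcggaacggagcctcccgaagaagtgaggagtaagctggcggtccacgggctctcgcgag
Atp6v0b: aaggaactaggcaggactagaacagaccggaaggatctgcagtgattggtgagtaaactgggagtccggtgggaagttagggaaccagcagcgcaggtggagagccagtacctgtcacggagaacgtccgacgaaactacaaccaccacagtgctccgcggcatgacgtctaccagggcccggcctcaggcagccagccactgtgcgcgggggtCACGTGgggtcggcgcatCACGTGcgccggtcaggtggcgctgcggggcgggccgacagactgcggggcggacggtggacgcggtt
Ctsa: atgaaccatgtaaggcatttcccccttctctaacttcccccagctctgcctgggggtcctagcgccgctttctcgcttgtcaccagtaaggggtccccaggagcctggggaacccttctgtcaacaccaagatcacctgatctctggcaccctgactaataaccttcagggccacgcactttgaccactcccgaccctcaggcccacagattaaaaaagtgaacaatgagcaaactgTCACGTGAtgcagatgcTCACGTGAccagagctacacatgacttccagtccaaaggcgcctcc
Gla: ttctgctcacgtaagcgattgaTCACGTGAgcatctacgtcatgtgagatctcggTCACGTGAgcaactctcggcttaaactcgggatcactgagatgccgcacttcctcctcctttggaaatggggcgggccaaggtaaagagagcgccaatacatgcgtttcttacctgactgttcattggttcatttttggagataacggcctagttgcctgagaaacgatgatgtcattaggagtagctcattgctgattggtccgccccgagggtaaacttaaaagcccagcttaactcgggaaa

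Mcoln1 has 1 longer and 1 core match within 71 bases of its start, Lamp1 has 4 core matches within 61 bases, and Atp6v0b has 2 core matches within 36 bases. Ctsa has longer matches on both sides of the start in the promoter shown. Its other promoter, further upstream at chr2:164832622-164832921, has none. Gla has its pair more than 190 bases before the start. The other genes with the longer form were Atp6v0d1, Atp6v0e, Atp6v1a and Ctsd, and those with the core alone were Ctsl, Gaa, Glb1 and Lgmn. Lgmn has its match in the promoter at chr12:102439043-102439342, and its other promoter, further upstream at chr12:102439679-102439978, has none. Calls stood as follows, where 23.6% of all genes rose and 22.1% fell. Of 12 tested genes with the core 3 rose and none fell, with a median log2 fold change of -0.16. Of 23 without it 9 rose and 1 fell, with a median of 0.32. Of the 7 with the longer form 1 rose, which was Mcoln1, and of the 28 without it 11 rose and 1 fell. These small counts were not tested against each other. A match is a description of the letters and not of binding, and its absence says only that these letters are not in this window.

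**Figure D2:**
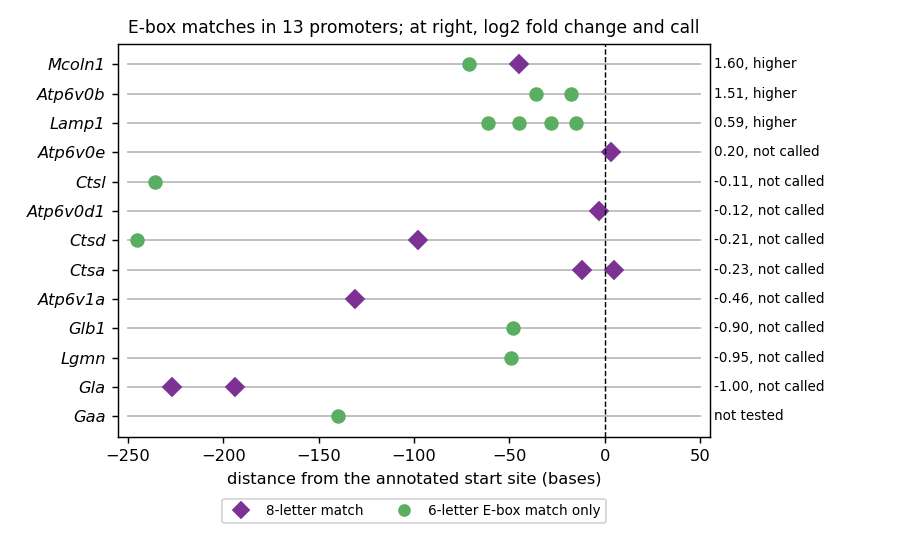
Positions of E-box matches, as the distance in bases of the core's first base from the annotated start site (dashed line), in the 13 promoters that hold one, with each gene's log2 fold change and call at the right. Diamonds are the 8-letter form and circles the 6-letter core alone; of the 7 genes with a diamond only Mcoln1, at 1.60, is marked as higher.

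Among the peptidases, 3 of 9 rose and none fell (23.6% and 22.1% of all genes), and the 3 were Ctss, Ctsh and Ctsz. Ctss (chr3:95526786-95556405), the cathepsin that trims the invariant chain of MHC class II in antigen-presenting cells, stood at 118, 124 and 142 CPM without Dox and at 555, 562 and 426 CPM with Dox. The groups were far apart, and library 12 was the lowest of those with Dox. The fold was 4.02 (log2 2.01 ± 0.17 SE, edgeR adjusted p = 1.6e-05). Ctsh (chr9:90054267-90076095), an aminopeptidase, stood at 14.6, 11.8 and 15.1 CPM and at 45.5, 33.0 and 45.7 CPM. Its groups did not overlap, and the log2 fold change was 1.58 ± 0.26 (SE, edgeR adjusted p = 0.00078). Ctsz (chr2:174427494-174439039), a carboxypeptidase, stood at 28.8, 17.2 and 25.1 CPM and at 49.4, 60.9 and 53.4 CPM. It too showed no overlap, with a log2 fold change of 1.20 ± 0.25 (SE, edgeR adjusted p = 0.00296).

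The peptidases of general protein breakdown did not pass. The cysteine proteases Ctsb and Ctsl had log2 fold changes of -0.30 and -0.11, the aspartic protease Ctsd -0.21, the carboxypeptidase Ctsa, which also protects neuraminidase, -0.23, and Ctsc, which activates granule serine proteases, 0.23. Of these, Ctsb, Ctsc and Ctsd had groups that did not overlap, by small margins: Ctsd, for example, ranged from 87.3 to 99.3 CPM without Dox and from 79.2 to 81.8 CPM with it. Ctsc passed with library size only, at 0.54 (edgeR adjusted p = 0.02145), within a range of 0.02145 to 0.803 over its alternatives. Ctsb passed without library 12, at -0.39 (edgeR adjusted p = 0.0339), and with the trend of fold change with transcript length removed, at -0.69 (adjusted p = 0.00479; 0.00479 to 0.975 over its alternatives).

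Lgmn, the asparaginyl endopeptidase, was singled out after its values were seen because the libraries with Dox disagreed. It had 229, 156 and 174 counts without Dox and 216, 166 and 22 with it, or 34.2, 31.6 and 29.5 CPM against 29.4, 17.1 and 2.90 CPM. Library 10 sat just under the group without Dox and library 12 far below it. The log2 fold change of -0.95 ± 0.59 (SE) had an edgeR adjusted p of 0.22, and without library 12 it was -0.47 (adjusted p = 0.189). It passed without a low-count filter, at -1.08 (adjusted p = 0.00565; 0.00565 to 0.426 over its alternatives).

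Summed over the 9 peptidases, the level went from 680 ± 23.97 CPM (SD, n = 3) without Dox to 1060 ± 65.9 CPM (SD, n = 3) with it. Without Ctss the sums were 552 ± 17.6 CPM and 546 ± 20.1 CPM (SD, n = 3 each), which differ by less than the spread between libraries. Within the sum without Ctss, the higher levels of Ctsh and Ctsz stood beside lower mean levels of Ctsb (251 and 204 CPM), Ctsd (93.4 and 80.8 CPM) and Lgmn (31.8 and 16.5 CPM), none of which passed.

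**Figure D3:**
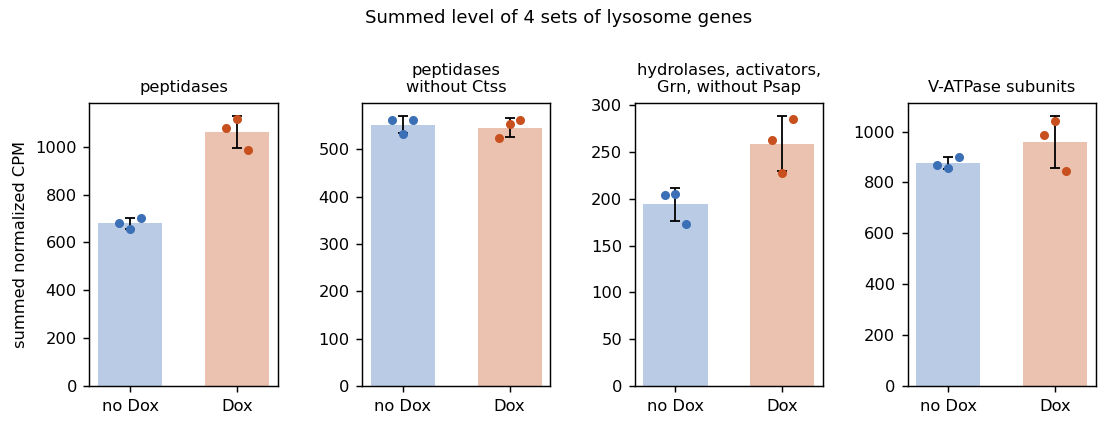
Summed normalized CPM (vertical axis, from 0) of 4 sets of lysosome genes; bars are group means, error bars 1 SD, points the 3 libraries of each group. The peptidase sum is 680 CPM without Dox and 1060 CPM with it, and 552 and 546 CPM once Ctss is left out; the V-ATPase sums overlap between groups.

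Among the hydrolases of glycans and lipids and their helpers, Grn and Hexa rose, Lipa fell and 7 others did not pass. Over all genes 23.6% rose and 22.1% fell. Grn (chr11:102430507-102436809) encodes progranulin, which is cut in the lysosome into granulins. It stood at 33.4, 32.2 and 36.1 CPM without Dox and at 89.6, 97.6 and 133 CPM with Dox. No library with Dox came near the group without it, and the fold was 3.15 (log2 1.65 ± 0.21 SE, edgeR adjusted p = 0.00016). Hexa (chr9:59539540-59565109), the alpha subunit of β-hexosaminidase, which splits GM2 ganglioside, stood at 9.85, 8.11 and 11.7 CPM and at 24.5, 32.8 and 35.5 CPM. Its groups were again apart, with a fold of 3.12 (log2 1.64 ± 0.29 SE, edgeR adjusted p = 0.00135).

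Lipa (chr19:34492316-34527474), the acid lipase that frees cholesterol and fatty acids from lipoproteins, was 1 of the 2 lysosome genes that fell. It stood at 40.9, 46.2 and 39.7 CPM without Dox and at 25.2, 10.7 and 28.3 CPM with Dox. The groups did not overlap, and library 11 was the lowest. The log2 fold change was -0.98 ± 0.34 (SE, edgeR adjusted p = 0.0384). Without any 1 of libraries 4, 5 and 6 it was -0.99 to -1.12 with adjusted p-values of 0.0706 to 0.102. Without library 11 it was -0.68 (adjusted p = 0.0376), and over all alternatives the adjusted p ranged from 0.00097 to 0.128. The call was also lost with upper-quartile scaling, at -0.89 (edgeR adjusted p = 0.0569), and with library size only, at -0.68 (edgeR adjusted p = 0.128).

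The other enzymes of this role gave log2 fold changes from -0.995 to 0.46. Psap, the precursor of the saposins that lift sphingolipids out of membranes, stood at 579 ± 120 CPM without Dox and 796 ± 143 CPM with it (SD, n = 3 each). Its log2 fold change was 0.46 ± 0.19 (SE, edgeR adjusted p = 0.0773). It passed in 4 alternatives: without library 12, at 0.57 (adjusted p = 0.0182), with upper-quartile scaling, at 0.56 (0.0398), with library size only, at 0.78 (0.00681), and with at least 10 counts in each library, at 0.58 (0.0248). Over its alternatives the adjusted p ranged from 0.00681 to 0.425. Gusb (β-glucuronidase), Neu1 (sialidase) and Man2b1 (α-mannosidase) had values of 0.30, 0.11 and -0.09. Glb1 (β-galactosidase) had -0.90 (edgeR adjusted p = 0.0892) and passed without library 6, at -1.24 (adjusted p = 0.0455; 0.0455 to 0.383 over its alternatives). Gla (α-galactosidase) had -0.995 ± 0.89 (SE), at 0.817 to 4.66 CPM in all libraries.

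Asah1, the acid ceramidase, was also singled out after its values were seen. It had 87, 83 and 96 counts in libraries 4, 5 and 6 and 119, 11 and 81 in libraries 10, 11 and 12. In normalized terms that was 12.98, 16.8 and 16.3 CPM against 16.2, 1.13 and 10.7 CPM. Library 11 was far below all others, library 12 was also below every library without Dox, and library 10 was among them. The log2 fold change was -0.73 ± 0.69 (SE, edgeR adjusted p = 0.419), and it was -0.22 without library 11. Lgmn was thus low in library 12, and Asah1 and Lipa were lowest in library 11. Summed over this role and without Psap, the level was 194 ± 17.8 CPM without Dox and 259 ± 29.0 CPM with it (SD, n = 3 each). Within these sums the means of Grn were 33.9 and 107 CPM and those of Hexa 9.88 and 30.9 CPM. They stood beside a lower mean level of Lipa (42.25 and 21.4 CPM).

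In the lysosome membrane and cholesterol export, Npc1, Mcoln1, Scarb2 and Lamp1 rose, and Lamp2, Cd63, Cd68 and Npc2 did not pass. Over all genes 23.6% rose and 22.1% fell. Npc1 is the membrane transporter that takes cholesterol out of the lysosome. It stood at 7.61, 8.51 and 8.31 CPM without Dox and at 44.6, 43.6 and 23.1 CPM with Dox. Library 12 was the lowest of the group with Dox and still well above every library without it. The fold was 4.56 (log2 2.19 ± 0.33 SE, edgeR adjusted p = 0.00045). Npc2, the soluble protein that hands cholesterol to Npc1, ranged from 115 to 128 CPM without Dox and from 95.4 to 125 CPM with it, with a log2 fold change of -0.20 ± 0.17 (SE, edgeR adjusted p = 0.384). The partners therefore differed in outcome, although the difference between them was not tested.

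Scarb2 (chr5:92441311-92505657), the receptor that carries β-glucocerebrosidase to the lysosome, stood at 61.6, 63.6 and 55.1 CPM and at 111, 128 and 68.1 CPM. The groups did not overlap, with library 12 close to the upper end of the group without Dox. The log2 fold change was 0.77 ± 0.24 (SE, edgeR adjusted p = 0.0244). Lamp1 (chr8:13159161-13175338), an abundant glycoprotein of the lysosome membrane, stood at 122, 117 and 137 CPM and at 214, 202 and 149 CPM, again without overlap and with library 12 the lowest of those with Dox. Its log2 fold change was 0.59 ± 0.18 (SE, edgeR adjusted p = 0.0245). Both calls were lost when any 1 of libraries 4, 5, 6, 10 and 11 was left out. Scarb2 then had log2 fold changes of 0.55 to 0.75 with adjusted p-values of 0.0757 to 0.148, and Lamp1 of 0.46 to 0.57 with 0.0756 to 0.169. Over all alternatives the adjusted p ranged from 0.000649 to 0.227 for Scarb2 and from 0.00163 to 0.169 for Lamp1. Lamp1 also lost its call without a filter on low counts, at 0.45 (edgeR adjusted p = 0.12).

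Lamp2, the companion of Lamp1 that also serves in chaperone-mediated autophagy, had a log2 fold change of -0.53 ± 0.23 (SE, edgeR adjusted p = 0.0845), opposite in sign to Lamp1. It passed without a low-count filter, at -0.67 (adjusted p = 0.0227; 0.0227 to 0.486 over its alternatives). Its levels ranged from 66.5 to 96.6 CPM without Dox and from 44.9 to 69.1 CPM with it. The tetraspanin Cd63 had a log2 fold change of 0.12. Cd68, a macrophage protein of the lysosome membrane, had 0.03 ± 0.46 (SE, edgeR adjusted p = 0.96), and its libraries with Dox spread from 10.1 to 40.5 CPM around those without, at 17.0 to 26.1 CPM.

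**Figure D4:**
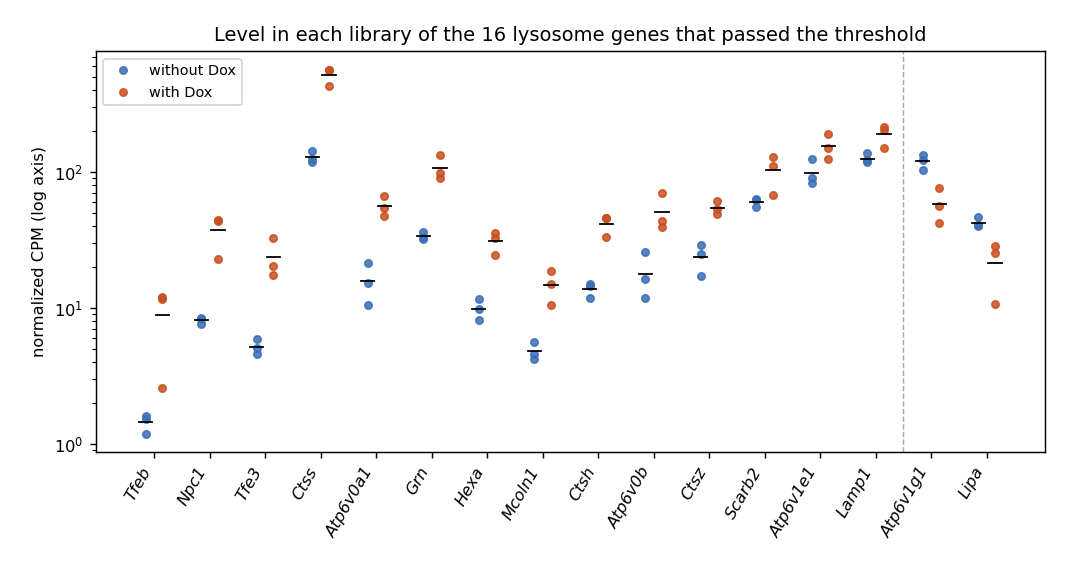
Normalized CPM (log axis) of the 16 lysosome genes that passed the threshold in each of the 6 libraries; blue points are without Dox, orange with Dox, and black lines are group means. The 14 genes left of the dashed line are higher with Dox, from Tfeb at 1.19 to 12.1 CPM to Lamp1 at 117 to 214 CPM, and the 2 right of it are lower.

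In the proton pump, 3 of 14 subunits rose, 1 fell and 10 did not pass, and the median log2 fold change was 0.02. The share that rose, 21.4%, was close to the 23.6% of all genes, and 7.14% fell against 22.1%. The summed level was 876 ± 23.0 CPM without Dox and 958 ± 101 CPM with it (SD, n = 3 each), and the sums of the 2 groups overlapped. Among the V0 subunits, Atp6v0a1 (chr11:101009422-101063719), an isoform of the large subunit that steers the pump to its membrane, stood at 10.6, 15.2 and 21.5 CPM without Dox and at 54.0, 47.5 and 66.4 CPM with it. Its groups were well apart, with a fold of 3.55 (log2 1.83 ± 0.29 SE, edgeR adjusted p = 0.000722). Atp6v0b (chr4:117884330-117887333), a part of the proton-conducting ring, stood at 16.3, 11.8 and 25.6 CPM and at 43.4, 39.6 and 69.7 CPM. The groups did not overlap, and the fold was 2.84 (log2 1.51 ± 0.34 SE, edgeR adjusted p = 0.00499). Atp6v0c, the ring's main proteolipid, had a log2 fold change of -0.32 (edgeR adjusted p = 0.306). It is uncertain, since its near-identical pseudogene Atp6v0c-ps2 had 1.14 to 1.74 times its counts in every library. Without library 11 Atp6v0c passed, at -0.64 (adjusted p = 0.0313; 0.0313 to 0.983 over its alternatives). The small subunit Atp6v0e had 0.20.

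Subunit d, which joins V0 to the central stalk, has 2 isoforms, and neither passed. The difference between them was not tested. Atp6v0d1, the isoform of most tissues, stood at 15.8, 15 and 15.3 CPM and at 8.98, 18.8 and 14.6 CPM. The groups overlapped, with a log2 fold change of -0.12 ± 0.34 (SE, edgeR adjusted p = 0.805). Atp6v0d2 (chr4:19876838-19922566), the isoform of osteoclasts and some macrophages, had 24, 16 and 42 counts without Dox and 0, 0 and 15 with it. In normalized terms that was 3.58, 3.24 and 7.12 CPM against 0, 0 and 1.98 CPM. The groups did not overlap, but with so few counts the log2 fold change of -2.81 had an SE of 1.42 and an edgeR adjusted p of 0.134. It passed without library 12 (adjusted p = 0.00303) and with limma-voom (adjusted p = 0.0354), within a range of 0.00303 to 0.352 over its alternatives. In libraries 10 and 11 a count of 0 allows up to 3 counts, or 0.408 and 0.309 CPM, for counting error only.

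Among the V1 subunits, Atp6v1e1 rose and Atp6v1g1 fell, and both belong to the peripheral stalks that hold V1 to V0. Atp6v1g1 (chr4:63544765-63550701) stood at 123, 133 and 103 CPM without Dox and at 75.9, 56.0 and 42.0 CPM with it. All libraries with Dox lay below those without, and the log2 fold change was -1.04 ± 0.23 (SE, edgeR adjusted p = 0.00495). Atp6v1e1 (chr6:120795244-120822698) stood at 124, 89.8 and 82.4 CPM and at 124.4, 151 and 188 CPM. Library 4, at 124.3 CPM, all but met library 10, and the log2 fold change was 0.64 ± 0.22 (SE, edgeR adjusted p = 0.036). The call was lost without library 5, 6, 11 or 12, where the log2 fold change was 0.43 to 0.64 and the adjusted p 0.0708 to 0.231. Over all alternatives its adjusted p ranged from 0.00148 to 0.231. Without a filter on low counts the call was lost too, at 0.49 (edgeR adjusted p = 0.0923).

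The catalytic core did not pass. Atp6v1a, which binds ATP, had a log2 fold change of -0.46 ± 0.19 (SE, edgeR adjusted p = 0.0709) with groups that did not overlap, 74.3 to 80.5 CPM against 45.3 to 63.4 CPM. It passed without library 11 (-0.60, adjusted p = 0.0401), without library 12 (-0.51, adjusted p = 0.0491) and with no filter on low counts (-0.61, adjusted p = 0.0476), within a range of 0.0401 to 0.859 over its alternatives. Its partner Atp6v1b2 had -0.40, and it passed without library 10, at -0.73 (adjusted p = 0.0483; 0.0483 to 0.827 over its alternatives). The regulatory subunits Atp6v1c1 and Atp6v1h had 0.15 and -0.29, and the central stalk subunits Atp6v1d and Atp6v1f 0.32 and 0.23. Atp6v1d passed with library size only, at 0.63 (edgeR adjusted p = 0.0322), within a range of 0.0322 to 0.858 over its alternatives. Atp6v1f passed without library 12, at 0.46 (adjusted p = 0.047; 0.0299 to 0.894 over its alternatives). Summed levels of the V1 subunits were 671 ± 13.8 CPM and 686 ± 82.9 CPM, and of the V0 subunits 205 ± 10.5 CPM and 272 ± 28.0 CPM (SD, n = 3 each, without and with Dox).

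The lysosome genes varied more between libraries with Dox. Their median coefficient of variation was 13.3% without Dox and 29.8% with it, and it was larger with Dox for 34 of 44. Among the 4473 tested genes of like level the medians were 13% and 24.5%, and the coefficient was larger with Dox for 3323. The wider spread was therefore not limited to lysosome genes.

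A further 122 lysosome genes, listed by role from general knowledge, extended the view. Of the 111 tested, 31 rose (27.9%, against 23.6% of all genes) and 18 fell (16.2%, against 22.1%), with a median log2 fold change of 0.19. A change of more than 1 on the log2 scale was fitted for 52 of the 111 (46.85%, against 52.24% of all genes). Those with the largest increase were Ctsw, Cln3, Slc15a3, Dmxl2 and Sort1. Ctsw, a cathepsin of cytotoxic lymphocytes, was at 0 in libraries 4, 5 and 6 and had 15, 44 and 15 counts in libraries 10, 11 and 12. It was at least 5.46-fold higher against a floor of 3 counts per library. Cln3, a lysosome membrane protein lost in juvenile Batten disease, stood at 7.60 ± 3.56 CPM and 62.8 ± 14.5 CPM (SD, n = 3 each; log2 3.04 ± 0.35 SE, edgeR adjusted p = 9.8e-05). The peptide transporter Slc15a3 rose by 2.92, the pump assembly factor Dmxl2 by 2.64 and the sorting receptor Sort1 by 2.59 on the log2 scale.

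The largest fitted decreases were those of Gnptg, Manba, Abcb9, Rraga and Lamtor2, of which the first 3 rest on few counts with Dox. Gnptg, a subunit of the enzyme that starts the mannose 6-phosphate tag, had 47, 24 and 17 counts in libraries 4, 5 and 6 and 8, 0 and 0 in libraries 10, 11 and 12 (log2 -3.75 ± 1.37 SE, edgeR adjusted p = 0.0471). The β-mannosidase Manba had 18, 20 and 35 counts and 1, 0 and 7 (log2 -3.55 ± 1.23 SE, edgeR adjusted p = 0.0388). The peptide transporter Abcb9 had 102, 76 and 89 counts and 15, 29 and 0 (log2 -3.15 ± 0.85 SE, edgeR adjusted p = 0.0125). The size and rank of these changes are uncertain at such counts. Rraga and Lamtor2 are parts of the Rag-Ragulator platform that brings mTORC1 to the lysosome. Rraga stood at 124 ± 6.87 CPM without Dox and 14.5 ± 3.77 CPM with it, and Lamtor2 at 86.1 ± 5.16 CPM and 10.7 ± 0.887 CPM (SD, n = 3 each). Their log2 fold changes were -3.10 ± 0.24 and -3.01 ± 0.20 (SE, edgeR adjusted p = 7.7e-06 and 4.2e-06). Of the 19 nutrient-sensing genes 5 fell (Mtor, Bloc1s1, Lamtor5, Lamtor2 and Rraga) and 3 rose (Fnip1, Arl8a and Lamtor1). Over all genes 22.1% fell and 23.6% rose.

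By role, the further list gave 4 higher and 2 lower of 13 peptidases and inhibitors and 7 and 3 of 29 glycan and lipid hydrolases. It gave 9 and 4 of 27 membrane proteins, and 3 and 3 of 14 sorting genes. Over all genes 23.6% rose and 22.1% fell. Rnaset2a and Rnaset2b, which are among the 3 hydrolases that fell, are near-identical copies and are uncertain. Of 9 other pump genes tested, 5 rose (Dmxl2, Dmxl1, Atp6ap1, Tcirg1 and Wdr7) and 1 fell (Atp6ap2), against 23.6% and 22.1% of all genes. Tcirg1, another isoform of the large V0 subunit, went from 7.998 ± 1.34 CPM to 23.5 ± 3.72 CPM (SD, n = 3 each; log2 1.55 ± 0.31 SE, edgeR adjusted p = 0.00248). The large-subunit isoform Atp6v0a2 had 43.3, 39.9 and 42.0 CPM without Dox and 21.9, 27.0 and 33.6 CPM with it, and this pair of groups did not overlap. Its log2 fold change was -0.60 ± 0.23 (SE, edgeR adjusted p = 0.0578), opposite in sign to Atp6v0a1 and Tcirg1. Atp6v0a4 had 0 to 21 counts per library and did not pass. Atp6v1b1, Atp6v1c2, Atp6v1e2 and Atp6v1g3 had 0 counts in all libraries.

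Markers of the cell types that spleen RNA could hold were counted in the same test. Of 18 tested markers of monocytes and macrophages 6 rose, 4 fell and 8 did not pass (23.6% of all genes rose and 22.1% fell), and their summed level was 899 to 1067 CPM without Dox and 1249 to 1651 CPM with it. Ccr2, Itgam and Marco were among those that rose, and C1qb, C1qc, Adgre1 and Cd5l fell. Spic, Slc40a1, Vcam1 and Cd163 were among those that did not pass. All 13 neutrophil, all 7 tested dendritic cell and all 10 B cell markers rose, and of 12 T cell markers 10 fell and none rose. Dendritic cell markers summed to 21.02 to 29.6 CPM and 135 to 172 CPM, and the neutrophil marker Ly6g was at 0 in every library without Dox. Plasma cell markers had 2 higher and 2 lower of 5 (237 to 268 CPM and 198 to 222 CPM), NK cell markers 2 higher and none lower of 3 (3.39 to 6.08 and 16.2 to 32.5 CPM), and megakaryocyte markers 6 higher of 6 (65.3 to 72.6 and 234 to 321 CPM). Erythroid markers had 3 higher and 1 lower of 9 (1394 to 1683 and 1928 to 1995 CPM), and endothelial and stromal markers 4 higher and 2 lower of 10 (336 to 341 and 528 to 618 CPM). Klre1 was at 0 without Dox and Cd209a with Dox. The part of these cell types in the levels of Ctss, Grn, Tfeb and the other lysosome genes was not tested.

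Transcript length moved with the fold changes of all genes. Over 4 bins of annotated transcript length with like numbers of genes, the medians of all log2 fold changes were -0.54, -0.22, 0.12 and 0.39 from short to long, with Spearman's rho of 0.235 across the 11992 genes that had a length. The lysosome genes did not follow that order, with medians of 0.18, -0.16, -0.04 and 0.54 and a rho of -0.065 across 44 genes, which share the 6 libraries and are not independent. With the length trend removed, 15 rose and 2 fell, and the median of the 44 was 0.34. Of all 14110 genes 6279 passed in that fit, 3325 of them higher, and the median of all genes was 0.085. Atp6v1g1 then had -0.58 (adjusted p = 0.0627) and Scarb2 0.39 (adjusted p = 0.227), and neither passed. Ctsb (-0.69), Atp6v0e (0.75, adjusted p = 0.0253; 0.0253 to 0.907 over its alternatives) and Atp6v1f (0.81, adjusted p = 0.0299; 0.0299 to 0.894) passed there and not in the main analysis. Across its alternatives Atp6v1g1 had adjusted p-values of 3.2e-06 to 0.0627.

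**Figure D5:**
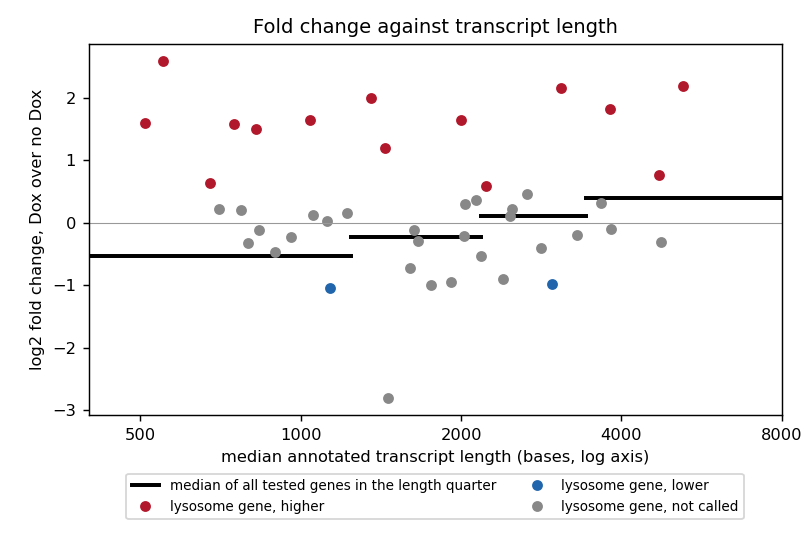
Fitted log2 fold change (vertical axis) of the 44 lysosome genes against the median length of their annotated transcripts in bases (log axis); black bars are the medians of all tested genes in each of 4 bins of length. The bars climb from -0.54 to 0.39, while red points (genes that rose) lie at short, middle and long lengths alike.

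Of the 16 genes that passed, 10 kept their direction and passed under all 16 alternative treatments of the data: Ctss, Ctsh, Ctsz, Grn, Hexa, Npc1, Mcoln1, Tfe3, Atp6v0a1 and Atp6v0b. The other 6 (Tfeb, Scarb2, Lamp1, Atp6v1e1, Lipa and Atp6v1g1) lost the call in at least 1 alternative, and none of the 16 changed sign. Of the 28 that did not pass, 18 changed sign in at least 1 alternative and 13 passed in at least 1. For 4 of the 18 (Ctsd, Ctsb, Npc2 and Atp6v1h) the sign changed only with scaling by library size alone, which moves the genes tested in both fits by a median of 0.31. Without library 12, 15 genes rose and 5 fell, and over all genes 7025 of 14800 tested passed. Without library 4, 11 rose and 1 fell (4862 of 15576 over all genes), and without library 5, 10 rose and 1 fell (4794 of 15676). Without library 11, 11 rose and 4 fell (6458 of 15003). Without library 6, 12 lysosome genes passed (4968 of 15608), and without library 10, 15 passed (6252 of 15150). In the main analysis 6438 of all 14110 genes passed.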

How the data were processed

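Polyadenylated RNA from 6 spleen samples was made into QuantSeq 3′ mRNA libraries (forward version), per the labels' protocols. STAR, featureCounts and build GRCm38 are named in the submitters' processing notes without versions or roles. The authors deposited raw counts per gene ID, 1 column per library, with no pooling. With 1 fragment per transcript, counts were not scaled by length. Symbols, positions and promoters came from RefSeq GRCm38.p6 (96.5% of 40808 IDs matched), transcript lengths from a GENCODE annotation of GRCm38.

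Groups follow the titles. The test was edgeR's (version 4.0.16, R 4.3.3; filterByExpr, minimum count 10 and total 15; TMM; quasi-likelihood F-test on 6 libraries without covariates; Benjamini-Hochberg over all 14110 genes; threshold 0.05). SE was derived from the fold change and F. Normalized CPM use TMM-scaled totals. The procedure was tested on simulated data that gave both groups the same spread, unlike these libraries. Alternatives used DESeq2 1.42.0, limma 3.58.1 (voom), other scalings, filters and thresholds, and each library left out; the length trend was added after seeing the data. Floors of 3 counts cover counting error only.

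The genes, the lists and the naming rule were chosen with earlier results of these data known. The rule names every lysosome gene once. It gives all 6 values for the 10 largest changes that passed in each direction, for Tfeb, Tfe3, Mitf, Mcoln1, Atp6v0d1 and Atp6v0d2, and names the 5 largest changes each way among the 122 further lysosome genes. Ctsz, Scarb2, Lamp1, Atp6v1e1, Lgmn, Asah1, Npc2, Cd68, Psap, Atp6v1a, Atp6v0a2 and the genes of the roles in the further list were given more room after their values were seen.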

Additional observations from a re-analysis of the deposited data

How the results depend on the processing

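No paired analysis was possible because numbers 4, 5 and 6 do not recur among the libraries with Dox. Over all 16 alternatives 10 to 17 lysosome genes were higher. The number lower was 2 in the main analysis, 1 with upper-quartile scaling, with library size only and at an adjusted p-value under 0.01, 5 without a low-count filter, and 1 to 5 with a library left out. The median log2 fold change of the lysosome genes, 0.14, was 0.45 with library size only, -0.0028 without a filter, 0.27 where each library had to hold 10 counts or more (41 genes left), 0.34 with the length trend removed, and -0.021 to 0.33 with a library left out. Genes tested both there and in the main analysis moved by a median of 0.31 with library size only, -0.14 without a filter and 0.12 with the strict filter, and 64.3%, 44.7% and 51.8% of all called genes were then higher (45.1% with limma-voom), against 51.6% in the main analysis. With the length trend removed the median of all genes was 0.085, against 0.073 in the main analysis. The further lysosome genes had 9 lower at an adjusted p-value under 0.01, where 4396 of all 14110 genes passed. The sign changes were all in genes that did not pass. Upper-quartile scaling gave Man2b1 0.0023. Library size only gave Ctsl 0.20, Ctsd 0.10, Ctsa 0.077, Ctsb 0.0067, Man2b1 0.22, Npc2 0.12, Atp6v0d1 0.19 and Atp6v1h 0.014. No filter gave Neu1 -0.026, Cd63 -0.0028 and Cd68 -0.12. The strict filter gave Ctsl 0.0093, Man2b1 0.024 and Atp6v0d1 0.0041. Limma-voom gave Cd68 -0.23. The length trend removed gave Ctsl 0.42, Ctsa 0.28, Atp6v0d1 0.12, Atp6v0c 0.22 and Atp6v1a 0.048. With a library left out the ranges were -0.83 to 0.0034 for Ctsa, -0.028 to 0.49 for Gusb, -0.17 to 0.46 for Neu1, -0.32 to 0.13 for Man2b1, -0.21 to 0.44 for Cd63, -0.68 to 0.37 for Cd68, -0.060 to 0.66 for Mitf, -0.047 to 0.42 for Atp6v0e, -0.40 to 0.10 for Atp6v0d1, -0.051 to 0.46 for Atp6v1f and -0.16 to 0.51 for Atp6v1c1. Beyond the construction of each alternative, the cause was not tested. Depth limits Gaa, Gla, Tfeb and Atp6v0d2.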
